A study of Mus musculus with 9 samples.

Results

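The NF-κB family was described at the level of its mRNA: the genes of the 5 DNA-binding subunits (*Nfkb1*, *Nfkb2*, *Rel*, *Rela* and *Relb*), 4 genes of IκB proteins (*Nfkbia*, *Nfkbib*, *Nfkbie* and *Nfkbiz*) and *Tnfaip3*. They were chosen by gene name, as 10 of the 55471 genes in the count table, and all 10 were among the 16260 genes that passed the filter on low counts. The study compared dendritic cells (DCs) under 2 stimuli that change cell metabolism in different ways. RNA sequencing covered 9 libraries of wild-type DCs grown from bone marrow of female C57BL/6 mice aged 8 to 20 weeks. All cultures received GM-CSF at 20 ng/mL and were harvested on day 8 or 9. Of these libraries, 3 came from unstimulated cells, 3 from cells given lipopolysaccharide (LPS, a wall component of Gram-negative bacteria) at 100 ng/mL, and 3 from cells given the cytokine interferon-β (IFN-β) at 1000 U/mL, each for 6 h. The labels name the replicates A, B and C and do not say whether these were separate mice or cultures, so p-values measure only the spread between these libraries. The sources used here name no sort for a cell type, and in bulk RNA fewer cells of a type cannot be told apart from less RNA per cell.

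NF-κB is a family of dimeric transcription factors. RelA, RelB and c-Rel, the products of *Rela*, *Relb* and *Rel*, carry activation domains, while *Nfkb1* and *Nfkb2* encode the precursors p105 and p100, from which p50 and p52 are cut. In resting cells IκB proteins such as IκBα hold the dimers in the cytoplasm. Toll-like receptor 4, the receptor for LPS, activates the IκB kinase, IκB is degraded and the dimers enter the nucleus, where several genes of the pathway are themselves known targets. IFN-β signals through a different receptor, the kinases JAK1 and TYK2 and STAT proteins. The protein levels, the nuclear entry and the DNA binding of these factors were not measured here.

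The libraries held 33425803 to 35877346 counts in the unstimulated group, 36115384 to 41015280 in the LPS group and 36843765 to 43735199 in the IFN-β group. Factors of the trimmed mean of M values (TMM), which correct for differences in RNA composition, were 1.181 to 1.262, 0.783 to 0.841 and 0.977 to 1.02 in the same order. Levels are given as CPM (the counts of a gene per 1000000 counts of its library) scaled by them. All 12 genes of a list of type I interferon response genes rose under IFN-β, among them *Rsad2* by 6.22 (SE 0.46) and *Ifit2* by 5.59 (SE 0.62) on the log2 scale. All 12 also rose under LPS, *Rsad2* by 8.05 (SE 0.5) and *Ifit2* by 6.57 (SE 0.64). Of the 12, 7 were called lower under IFN-β than under LPS, so the list does not mark the IFN-β libraries alone. The summed level of 11 dendritic cell markers ran from 7720 to 8820 CPM in unstimulated, 10100 to 10800 in LPS and 8780 to 9390 in IFN-β libraries. The sum of 9 macrophage markers ran from 12400 to 15800, 10300 to 13100 and 12400 to 14500 CPM in the same order. A list of 4 plasmacytoid DC markers went from 36.3 to 44.1 CPM in unstimulated libraries up to 209 to 255 CPM under LPS and 73.2 to 95.7 CPM under IFN-β, nearly all of it *Tcf4*, while the defining marker *Siglech* had a mean of 0.0159 CPM or less in every group. Neutrophil markers summed to 9.61 to 25.6 CPM over all libraries, and the lists for mast cells, B cells, T cells and erythroid cells each summed to under 0.5 CPM, with *Hbb-bs* at 0 counts everywhere. The part of these cell type markers in the results on NF-κB genes was not tested.

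All 10 genes were higher after LPS, and all 10 were higher after IFN-β. In both cases TMM-scaled CPM had no overlap between the 3 treated and the 3 unstimulated libraries. The LPS responses were the larger of the 2 for every gene, from 1.06 (*Rela*) to 4.18 (*Nfkbiz*) on the log2 scale, while the IFN-β responses lay between 0.44 (*Rela*) and 0.99 (*Tnfaip3*). Of all tested genes, 32.8% were called higher and 35.4% lower under LPS by edgeR's quasi-likelihood test at a Benjamini-Hochberg adjusted p under 0.05, and 34.6% were higher without overlap. Under IFN-β, 23.6% were called higher and 23.3% lower, and 28.5% were higher without overlap. The 10 genes had a median log2 fold change of 2.23 with LPS and of 0.63 with IFN-β. Over all tested genes the medians were -0.04 and -0.02, values that TMM scaling itself keeps small. Without regard to sign, the median change over all tested genes was 0.65 with LPS and 0.35 with IFN-β. Among the genes called in either direction it was 0.98 and 0.65. Both comparisons share the unstimulated libraries.

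**Figure D1:**
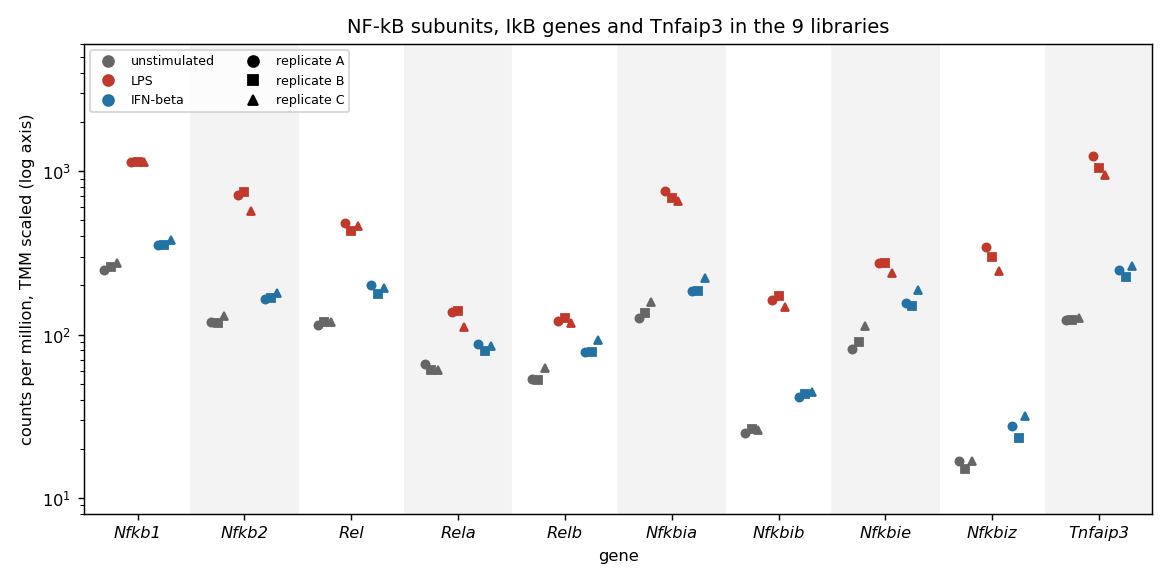
Level of each gene in each library, as TMM-scaled CPM on a log axis, with colour for the group and marker shape for the replicate letter. For every gene the LPS libraries are highest, the IFN-β libraries lie between, and the unstimulated libraries are lowest.

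The stretch of DNA just before the transcription start was read for the members, because NF-κB genes are a textbook case of regulation by their own products and a reader can see the motif letters in place. RefSeq start sites on GRCm38.p6 gave 10 windows for 7 members, and the 250 bases before each start were searched. Of these, 7 windows of 5 members (*Nfkb2*, *Nfkbia*, *Nfkbie*, *Rel* and *Tnfaip3*) held the consensus κB motif, the sequence NF-κB dimers bind, on either strand. The same motif was in 7.25% of the 32851 windows of all genes. The windows of *Rela* and *Nfkbib* had no match, and *Nfkb1*, *Relb* and *Nfkbiz* had no window. In the sequences, written 5′ to 3′ on the strand of the gene, capitals mark the κB matches. A match is a description of letters and not a shown binding site, and the absence of one says only that these letters are not in the window.

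*Nfkbia*, chr12:55492648-55492897, minus strand: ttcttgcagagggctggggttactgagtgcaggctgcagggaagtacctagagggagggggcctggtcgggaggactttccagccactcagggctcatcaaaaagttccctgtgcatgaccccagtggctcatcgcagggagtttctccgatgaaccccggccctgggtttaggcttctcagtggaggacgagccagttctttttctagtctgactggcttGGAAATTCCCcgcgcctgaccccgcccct
*Rel*, chr11:23770971-23771219, minus strand: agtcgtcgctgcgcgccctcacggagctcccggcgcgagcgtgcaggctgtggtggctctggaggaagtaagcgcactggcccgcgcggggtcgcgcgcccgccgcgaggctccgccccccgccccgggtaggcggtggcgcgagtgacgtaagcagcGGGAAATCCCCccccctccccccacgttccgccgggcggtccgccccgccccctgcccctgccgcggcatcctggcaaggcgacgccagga
*Nfkbie*, chr17:45555450-45555699, plus strand: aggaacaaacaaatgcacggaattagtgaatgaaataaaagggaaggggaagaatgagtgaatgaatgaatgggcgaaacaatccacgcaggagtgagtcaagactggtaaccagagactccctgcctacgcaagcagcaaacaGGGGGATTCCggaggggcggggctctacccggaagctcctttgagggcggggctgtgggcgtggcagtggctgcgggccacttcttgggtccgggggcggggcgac
*Tnfaip3*, chr10:19015411-19015547, minus strand: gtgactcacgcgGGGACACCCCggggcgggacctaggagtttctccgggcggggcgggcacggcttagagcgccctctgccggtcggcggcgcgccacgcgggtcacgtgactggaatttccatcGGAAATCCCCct
*Nfkb2*, first start, chr19:46304693-46304712, plus strand: gtcacGGGAATTCCCCccct
*Nfkb2*, first start, chr19:46304717-46304736, plus strand: gggccgaaaGGGGCTTTCCc

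The *Nfkbia* match began 29 bases before the start, the *Nfkbie* match 106 bases before it, and the nearer of the 2 *Tnfaip3* matches 12 bases before it. In *Rel* and in the first *Nfkb2* window the capital run of 11 bases holds 2 overlapping matches, and *Nfkb2* had a further match 11 bases before its start. Of all windows, 1.03% held 2 or more matches. The interferon-stimulated response element core GAAANNGAA, a motif of many interferon-induced genes, was found on either strand in 1 member window, that of *Nfkbia* at 53 bases before the start, and in 7.13% of all windows. The gamma-activated site TTCNNNGAA, bound by STAT dimers, was in 1 window, that of the first *Nfkb2* start at 148 bases before it, and in 7.02% of all. Neither overlapped a κB match.

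Among the subunits, the precursor genes and *Rel* rose most under LPS, and *Rel* and *Relb* rose most under IFN-β. *Nfkb1* (ENSMUSG00000028163, GRCm38 chr3:135584655-135691547, minus strand) stood at 249, 258 and 274 CPM in unstimulated libraries A, B and C, at 1140, 1130 and 1140 CPM after LPS and at 351, 351 and 381 CPM after IFN-β. Its LPS libraries lay closest together of all members, with an SD of 4.12 CPM around a mean of 1140 CPM (n = 3, coefficient of variation 0.362%). That spread was no larger than counting error alone would give, so it does not show that this gene varied less than others. The log2 fold change was 2.13 (SE 0.07) under LPS and 0.47 (SE 0.07) under IFN-β, with edgeR quasi-likelihood Benjamini-Hochberg adjusted p-values of 4.8e-09 and 0.00034.

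*Nfkb2* (ENSMUSG00000025225, chr19:46304320-46312385, plus strand) encodes p100, which feeds the alternative NF-κB pathway. It was at 120, 118 and 129 CPM unstimulated, 713, 745 and 571 CPM after LPS and 164, 167 and 180 CPM after IFN-β. LPS replicate C was the low one of its group, and the groups remained apart in TMM-scaled CPM. The log2 fold change was 2.46 (SE 0.1) under LPS and 0.47 (SE 0.1) under IFN-β (edgeR quasi-likelihood, Benjamini-Hochberg adjusted p = 1.4e-08 and 0.0027). Exons of genes on the opposite strand cover part of its exons, 11.6% by *AC114539.1* and 6.52% by *Psd*. Since the strand setting of the counting is not given in the sources used here, reads from those stretches cannot be assigned with certainty.

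*Rel* (ENSMUSG00000020275, chr11:23736847-23770970, minus strand) encodes c-Rel, the subunit most tied to lymphoid and myeloid cells. Its level was 114, 120 and 120 CPM unstimulated, 480, 428 and 459 CPM after LPS and 200, 178 and 194 CPM after IFN-β. It had the largest IFN-β response of the subunits, 0.69 (SE 0.07) on the log2 scale or 1.62-fold, beside 1.95 (SE 0.07) or 3.86-fold under LPS. The edgeR quasi-likelihood adjusted p-values (Benjamini-Hochberg) were 3.1e-05 and 7.6e-09.

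*Rela* and *Relb* moved least under LPS. *Rela* (ENSMUSG00000024927, chr19:5637483-5648130, plus strand), the gene of the main activating partner of p50, was at 65.8, 60.3 and 60.3 CPM unstimulated, 138, 139 and 112 CPM after LPS and 87.1, 79.5 and 85.5 CPM after IFN-β. *Relb* (ENSMUSG00000002983, chr7:19606217-19629438, minus strand), whose product pairs with p52 and is a known factor in DC maturation, was at 53.5, 52.7 and 62 CPM, then 121, 127 and 117 CPM, then 78.2, 78 and 92.4 CPM in the same order of groups. The 3 groups did not overlap for either gene in TMM-scaled CPM. The log2 fold changes under LPS were 1.06 (SE 0.09) for *Rela* and 1.12 (SE 0.09) for *Relb* (edgeR quasi-likelihood, Benjamini-Hochberg adjusted p = 1.4e-06 and 9.8e-07). Under IFN-β they were 0.44 (SE 0.09) and 0.56 (SE 0.09), with adjusted p-values of 0.0022 and 0.00044 from the same test.

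The genes of the inhibitors spanned a wider range. *Nfkbia* (ENSMUSG00000021025, chr12:55489410-55492647, minus strand) encodes IκBα, the inhibitor that is resynthesised after NF-κB activation and ends it. It was at 126, 136 and 158 CPM unstimulated, 759, 686 and 658 CPM after LPS and 184, 184 and 223 CPM after IFN-β. Replicate C was highest in the unstimulated and IFN-β groups and lowest in the LPS group, without overlap between groups in TMM-scaled CPM. The log2 fold change was 2.33 (SE 0.11) under LPS and 0.49 (SE 0.11) under IFN-β (edgeR quasi-likelihood, Benjamini-Hochberg adjusted p = 3.1e-08 and 0.0035).

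*Nfkbib* (ENSMUSG00000030595, chr7:28758251-28767512, minus strand), the gene of IκBβ, was a low expressed member before stimulation, at 25, 26.3 and 26.1 CPM. It reached 163, 173 and 148 CPM after LPS and 41.2, 43.1 and 44.3 CPM after IFN-β. The log2 fold change of 2.65 (SE 0.07) under LPS was larger than that of *Nfkbia*, and under IFN-β it was 0.73 (SE 0.07), with edgeR quasi-likelihood Benjamini-Hochberg adjusted p-values of 1.4e-09 and 1.8e-05. Opposite-strand exons of *Ccer2* cover 14.5% of its exon bases and those of *Sirt2* 1.94%, with the same uncertainty as for *Nfkb2*.

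*Nfkbie* (ENSMUSG00000023947, chr17:45555703-45563169, plus strand) encodes IκBε, which restrains RelA and c-Rel dimers. Its libraries read 82, 90.2 and 113 CPM unstimulated, 274, 275 and 238 CPM after LPS and 155, 149 and 187 CPM after IFN-β. It rose least of the inhibitors under LPS, by 1.46 (SE 0.13) on the log2 scale, and by 0.79 (SE 0.13) under IFN-β (edgeR quasi-likelihood, Benjamini-Hochberg adjusted p = 2.1e-06 and 0.00054). Its IFN-β response was 54.1% of its LPS response on the log2 scale, the highest such share of the 10 genes, with *Relb* close at 50%.

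*Nfkbiz* (ENSMUSG00000035356, chr16:55811375-55838899, minus strand) encodes IκBζ, a nuclear IκB that acts with p50 on late genes such as *Il6*. It had the lowest counts of the family before stimulation, 662, 672 and 750 reads or 16.8, 15.1 and 16.9 CPM, and the largest rise under LPS, to 342, 298 and 246 CPM. IFN-β libraries stood at 27.4, 23.4 and 31.9 CPM. The LPS change was 18.2-fold (log2 4.18, SE 0.15, edgeR quasi-likelihood Benjamini-Hochberg adjusted p = 5.3e-09), and 1.65% of all tested genes had a higher log2 fold change. The IFN-β change was 1.69-fold (log2 0.76, SE 0.14, adjusted p = 0.0011 in the same test), or 18.2% of the LPS response on the log2 scale. That was the lowest such share of the 10 genes with TMM scaling, but *Nfkb2* was close at 19.1%. These shares depended on the scaling, and with library totals alone *Nfkb2* was at 0.17 under IFN-β and 1.88 under LPS.

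*Tnfaip3* (ENSMUSG00000019850, chr10:19000910-19015657, minus strand) encodes A20, a ubiquitin-editing enzyme that shuts off signalling above the IκB kinase. It was at 122, 122 and 127 CPM unstimulated, 1240, 1050 and 948 CPM after LPS and 249, 224 and 262 CPM after IFN-β. It came second to *Nfkbiz* under LPS, at 8.73-fold (log2 3.13, SE 0.11), and first under IFN-β, at 1.98-fold (log2 0.99, SE 0.1). The edgeR quasi-likelihood adjusted p-values (Benjamini-Hochberg) were 5.3e-09 and 3.4e-05.

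**Figure D2:**
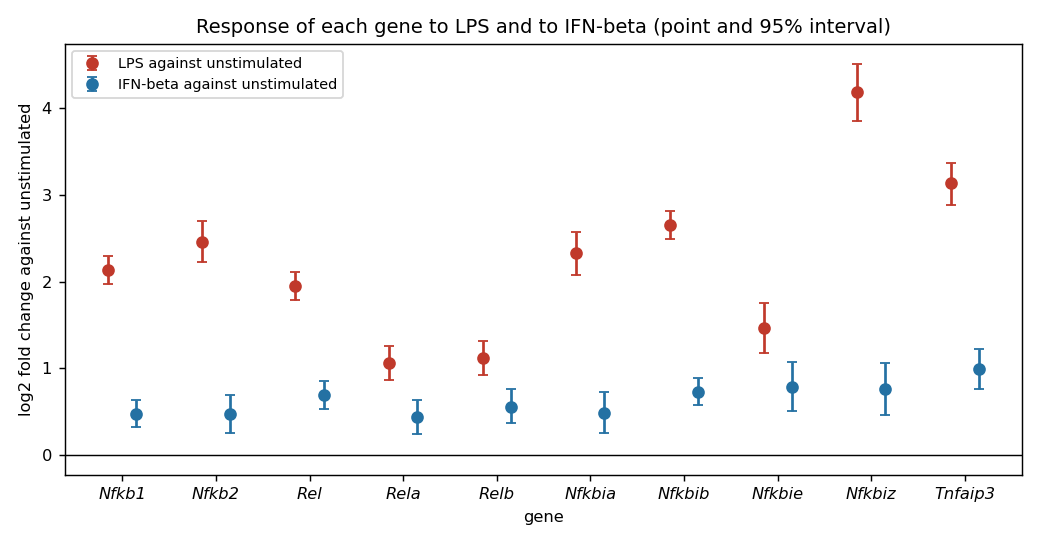
Log2 fold change of each gene against the unstimulated group, with 95% intervals from the edgeR model, for LPS (red) and IFN-β (blue). All 20 points lie above 0, and the LPS point of *Nfkbiz* stands highest at 4.18, while the IFN-β points lie between 0.44 and 0.99.

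The IFN-β calls of 4 of these genes depended on the scaling. With library totals alone in place of TMM factors, the median of all genes shifted by -0.31 for IFN-β, and *Nfkb1*, *Nfkb2*, *Rela* and *Nfkbia* were at 0.16, 0.17, 0.13 and 0.18 on the log2 scale, with edgeR quasi-likelihood adjusted p-values (Benjamini-Hochberg) of 0.087, 0.16, 0.17 and 0.16. The other 6 genes passed the threshold under that scaling too. All 10 LPS calls were also made under it, with the median of all genes shifted by -0.58. Relative to library totals, the IFN-β and unstimulated libraries overlapped for *Nfkb1*, *Nfkb2*, *Nfkbia* and *Relb*. *Relb*, for example, had 2747 of 35134316 counts in unstimulated replicate C and 3338 of 43735199 in IFN-β replicate A.

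Set directly against LPS, IFN-β left all 10 genes at lower levels, again without overlap between libraries. Of all tested genes, 23.3% were called lower in this comparison and 27.3% were lower without overlap. The difference, IFN-β minus LPS on the log2 scale, was smallest for *Relb* at -0.56 (SE 0.09), *Rela* at -0.63 (SE 0.09) and *Nfkbie* at -0.68 (SE 0.13), with edgeR quasi-likelihood adjusted p-values (Benjamini-Hochberg) of 0.00038, 0.00016 and 0.0012. It was largest for *Nfkbiz* at -3.42 (SE 0.14), *Tnfaip3* at -2.14 (SE 0.11) and *Nfkb2* at -1.99 (SE 0.1). The median was -1.26 over the subunits and -1.91 over the IκB genes and *Tnfaip3*.

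The replicate letters were also compared. Taking each LPS library against the unstimulated library of the same letter, replicate C gave the smallest log2 difference for 9 of the 10 genes, *Rel* being the exception. *Nfkbie*, for example, differed by 1.74 in A, 1.6 in B and 1.07 in C, and *Nfkbia* by 2.59, 2.33 and 2.06. For IFN-β against unstimulated the smallest difference was in A for 3 genes, in B for 7 and in C for 0. For IFN-β against LPS it was in C for all 10 genes, though *Rel* was nearly level at -1.26, -1.26 and -1.24. No call on a member depended on replicate C, since all 10 genes passed the threshold in every comparison when any 1 of the 9 libraries was left out.

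Levels of different genes were compared per kb of exon, as CPM divided by the union of each gene's exons. *Nfkbia* was the most abundant member in every group, at 86.8 ± 10.1 CPM per kb unstimulated, 435 ± 32.2 after LPS and 122 ± 13.8 after IFN-β (mean ± SD, n = 3). Below it in unstimulated cells came *Nfkbie* (31.2 ± 5.24) and *Nfkb2* (26.7 ± 1.3), whose ranges overlapped, then *Nfkb1* (21.6 ± 1.03) and *Rela* (20.2 ± 1.04), whose ranges also overlapped. *Tnfaip3* (17.1 ± 0.382), *Rel* (15.8 ± 0.496) and *Relb* (14.4 ± 1.32) followed, the last 2 with overlapping ranges, then *Nfkbib* (11.9 ± 0.327) and, lowest, *Nfkbiz* (3.24 ± 0.203 CPM per kb).

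The order was different after LPS. *Tnfaip3* stood at 149 ± 20.5 CPM per kb, level with *Nfkb2* at 147 ± 20.2, and *Nfkbiz* at 58.8 ± 9.59 overlapped *Rel* at 61 ± 3.54, while *Relb* became the lowest at 31.3 ± 1.27 below *Rela* at 42.3 ± 4.96. In IFN-β-treated cells *Nfkbie* (53.8 ± 6.76) was again second and *Nfkbiz* (5.49 ± 0.846 CPM per kb) again last. The rank of *Nfkb1* depended on the length used. The union of its exons holds 12061 bases, and divided by its longest protein-coding transcript of 4117 bases *Nfkb1* was at 63.2 ± 3.03, 277 ± 1 and 87.6 ± 4.15 CPM per kb, second to *Nfkbia* in each group. Other ranks after LPS also depended on the length. By the longest protein-coding transcripts *Rela* was lowest, at 47.8 ± 5.62 below *Relb* at 55.1 ± 2.24 CPM per kb. *Tnfaip3* was then at 244 ± 33.6 and *Nfkb2* at 176 ± 24 CPM per kb.

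The summed level of the 5 subunit genes was 98.7 ± 3.34 CPM per kb in unstimulated, 377 ± 25.4 in LPS-treated and 141 ± 6.6 in IFN-β-treated cells. Shares of that sum do not depend on scaling between libraries. After LPS the share of *Nfkb2* went from 27.1% ± 0.395 to 39% ± 2.87 and that of *Nfkb1* from 21.8% ± 0.554 to 25.2% ± 1.8. The share of *Rela* went from 20.5% ± 1.45 to 11.2% ± 0.586 and that of *Relb* from 14.6% ± 0.828 to 8.33% ± 0.349, while the shares of *Rel*, 16% ± 0.551 and 16.3% ± 1.55, overlapped. In IFN-β libraries the ranges of 4 of 5 genes overlapped those of unstimulated libraries. *Rel* was the one that did not overlap, at 18.1% ± 0.884 against 16% ± 0.551. Within each replicate letter, the IFN-β share was lower than the unstimulated one for *Nfkb1* and *Rela* and higher for *Rel* and *Relb* in all 3 pairs, by 0.2, 0.76 and 0.48 percentage points for *Relb* and by 3.46, 0.98 and 1.82 for *Rel*.

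For each share that did not overlap, the exact two-sided permutation test gave p = 0.1, the smallest that 3 libraries against 3 allow, and over the 15 share comparisons the smallest Benjamini-Hochberg adjusted value was 0.167. By the lengths of the longest protein-coding transcripts, a choice made after seeing the data, *Nfkb1* held 39.7% ± 0.742, 45% ± 2.35 and 38.8% ± 0.462 of the sum in unstimulated, LPS and IFN-β libraries, and *Nfkb2* 20% ± 0.242, 28.4% ± 2.58 and 19.6% ± 0.405. The directions of the LPS differences of *Nfkb1*, *Nfkb2*, *Rela* and *Relb* were the same with that length.

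**Figure D3:**
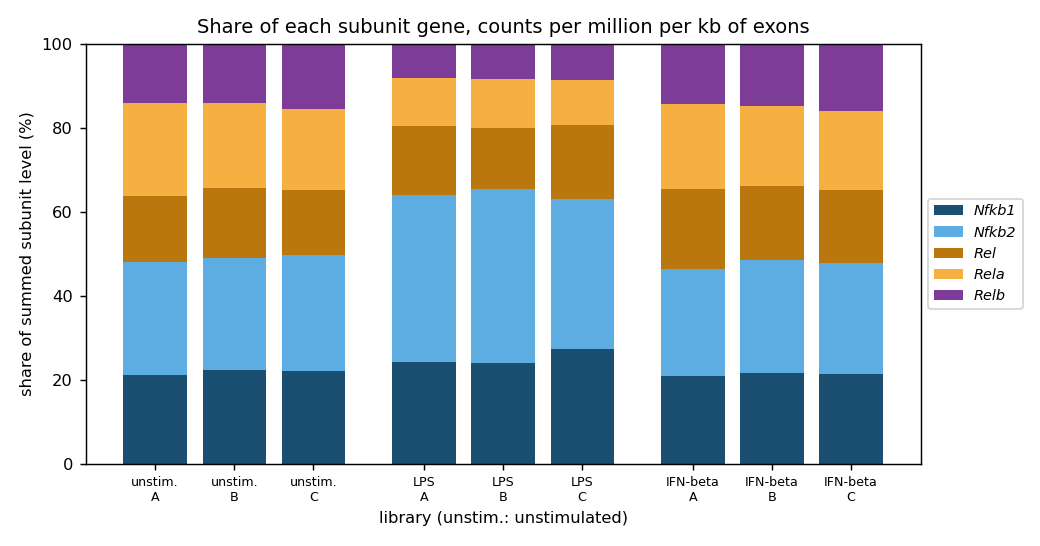
Share of each subunit gene in the summed subunit level (CPM per kb of exons, in %) for each of the 9 libraries, as stacked bars that add up to 100%. The *Nfkb2* segment is widest in the 3 LPS libraries (35.9% to 41.5%), where the *Rela* and *Relb* segments are narrowest.

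Ratios within a library compared *Nfkbia*, *Nfkbib*, *Nfkbie* and *Tnfaip3* with *Rela*, and *Nfkbiz* with *Nfkb1*, as log2 values per kb. The *Nfkbia* to *Rela* ratio was 1.87 to 2.32 in unstimulated, 3.23 to 3.48 in LPS and 2.01 to 2.31 in IFN-β libraries. The mean difference from unstimulated was 1.27 for LPS, without overlap, and 0.06 for IFN-β, with overlapping ranges. For *Nfkbib* the ratio was 1.59 higher in LPS libraries and 0.3 higher in IFN-β libraries, and for *Tnfaip3* it was 2.06 and 0.55 higher, in each case without overlap. The *Nfkbie* ratio was 0.42 higher with LPS, without overlap, and 0.36 higher with IFN-β, with overlap. For *Nfkbiz* the ratio to *Nfkb1* was 2.04 higher with LPS, without overlap, and 0.28 higher with IFN-β, with overlap.

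Among the subunits, the *Relb* to *Rela* ratio had overlapping ranges in all 3 groups, with means of -0.49 ± 0.17, -0.43 ± 0.13 and -0.36 ± 0.13 in unstimulated, LPS and IFN-β libraries. Against the unstimulated library of the same letter it was higher in every pair, by 0.11, 0.06 and 0.02 with LPS and by 0.14, 0.17 and 0.07 with IFN-β for A, B and C. The *Rel* to *Rela* ratio averaged -0.36 ± 0.12 in unstimulated libraries. It was 0.53 ± 0.21 with LPS and -0.1 ± 0.02 with IFN-β, and neither range overlapped the unstimulated one. The *Nfkb2* to *Nfkb1* ratio was 0.63 ± 0.21 in LPS libraries and had a mean of 0.31 in both other groups. The signs of the *Relb* to *Rela* and *Nfkb2* to *Nfkb1* ratios depended on the gene length, which differences between groups do not. By the longest protein-coding transcripts *Relb* was above *Rela* in each group, with unstimulated means of 25.4 and 22.9 CPM per kb. *Nfkb2* was then below *Nfkb1* in each group, with unstimulated means of 31.8 and 63.2. Of the 30 ratio comparisons 20 did not overlap, each with an exact two-sided permutation p = 0.1, and the smallest Benjamini-Hochberg adjusted value was 0.15. Of the 10 that overlapped, 6 had the same sign in all 3 letters, and 3 pairs allow no exact two-sided p under 0.25.

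**Figure D4:**
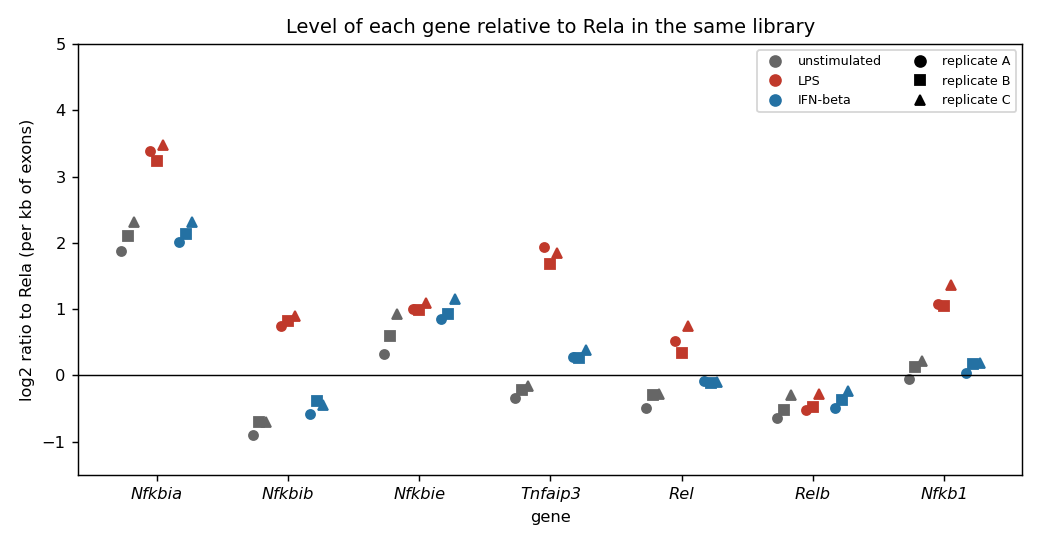
Log2 ratio of 7 genes to *Rela* in the same library, per kb of exons, with colour for the group and marker shape for the replicate letter. The *Relb* points of the 3 groups overlap, while the LPS points of *Nfkbia*, *Nfkbib*, *Tnfaip3*, *Rel* and *Nfkb1* lie above the rest.

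Across the 9 libraries the members ran closely together, with Pearson's r of log2(CPM + 0.5) between 0.904 (*Nfkbie* and *Nfkbiz*) and 0.998 (*Nfkb2* and *Nfkbiz*). These are descriptions over 9 points that share 3 conditions, and 3.77% to 7.54% of all tested genes had an r over 0.95 with a given member. *Relb* and *Nfkbie* were closest to each other within the family for both genes, at 0.995. Outside the family, the 2 genes most like *Nfkbia* were *Sod2*, which encodes mitochondrial superoxide dismutase (r = 0.9991), and *Lrrc59* (0.9989). For *Nfkb1* they were *Adora2a*, an adenosine receptor gene (0.9994), and *Itpr2* (0.9983), and for *Rel* they were *Chac2* (0.9988) and *Jak2*, a cytokine receptor kinase gene (0.9983). *Nfkb2* was most like *Sbds* (0.9977) and *Tnip1* (0.9973), *Nfkbiz* most like *Sbds* (0.9994) and *Zc3h12c* (0.9986), and *Nfkbib* most like *Itga5* (0.9982) and *Traf1* (0.9981). *Rela* was most like *Sap130* (0.9993) and *Tnrc18* (0.9961), *Relb* most like *Mtmr14* (0.9978) and *Slc25a25* (0.9942), and *Tnfaip3* most like *Caml* (0.9983) and *Adgb* (0.9979). The 2 genes nearest to *Nfkbie*, *Tcap* (0.9934) and *Gm49355* (0.9932), had group means under 1 CPM.

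The rest of the pathway was described by lists of genes, whose counts stand beside the shares of all genes given above. Their splits into higher and lower depended on the scaling, so those with library totals alone are given too. Among 6 other IκB-type and nuclear regulators, 4 rose and 1 fell under LPS, and 1 fell under IFN-β. With library totals 2 were called higher and 2 lower after LPS, while after IFN-β 0 were higher and 3 lower. *Bcl3*, a nuclear IκB, rose under LPS by 1.39 (SE 0.1), while the nuclear IκB gene *Nfkbid* was at 0.13 (SE 0.08, edgeR quasi-likelihood Benjamini-Hochberg adjusted p = 0.14). *Nkrf*, the gene of an NF-κB repressing factor, fell under both stimuli, by 1.06 (SE 0.12) and 0.69 (SE 0.12). Under IFN-β *Bcl3* was at 0.23 (SE 0.1), with an adjusted p of 0.076 in the same test, and it passed at 0.028 with the replicate letter as a block, at 0.024 with the compared groups alone, at 0.025 without LPS replicate A and at 0.046 without LPS replicate C. With library totals it was at -0.07 (adjusted p = 0.48 in the same test).

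Among 13 genes of the IκB kinase complex and related kinases, 10 rose and 3 fell under LPS, and 8 rose and 1 fell under IFN-β. With library totals 7 were called higher and 4 lower under LPS, and 5 higher and 5 lower under IFN-β. *Tank* and *Azi2*, adaptors of the kinases TBK1 and IKKε, rose most under both, *Tank* by 2.3 (SE 0.1) and 1.12 (SE 0.1) and *Azi2* by 1.81 (SE 0.12) and 1.31 (SE 0.11). *Map3k14*, which encodes NIK, the kinase of the alternative pathway, fell by 0.62 (SE 0.07) under LPS and by 0.26 (SE 0.07) under IFN-β. *Tab1*, a partner of the kinase TAK1, fell by 0.58 (SE 0.1) under LPS.

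Among 19 receptor-proximal genes, 13 rose and 3 fell under LPS, and 11 rose and 2 fell under IFN-β. Library totals gave 10 higher and 6 lower under LPS, and 7 higher and 6 lower under IFN-β. *Peli1*, a ubiquitin ligase gene, rose by 3.36 (SE 0.15) under LPS and 1.74 (SE 0.14) under IFN-β. *Cd14*, the LPS co-receptor, rose by 3.21 (SE 0.09) under LPS and fell by 0.27 (SE 0.09) under IFN-β. *Irak1*, a kinase gene of the same receptor complex, fell under both, by 0.97 (SE 0.06) and 0.44 (SE 0.06), and *Tlr4* fell under LPS by 0.63 (SE 0.12). *Irak2* rose by 0.83 (SE 0.1) under IFN-β.

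Among 18 genes of ubiquitin editing and other regulation, 14 rose and 2 fell under LPS, and 10 rose and 1 fell under IFN-β. Not all of them are negative regulators, so the counts do not describe negative regulation alone. By library totals 10 were higher and 7 lower under LPS, and 6 higher and 4 lower under IFN-β. *Zc3h12a*, the gene of an RNase that degrades cytokine mRNAs, rose by 2.55 (SE 0.11) and *Traf1* by 2.49 (SE 0.07) under LPS. *Pdlim2*, whose product sends nuclear RelA for degradation, fell by 1.68 (SE 0.13) under LPS and by 0.79 (SE 0.12) under IFN-β, and *Itch* fell by 0.19 (SE 0.06) under LPS. *Tax1bp1*, an A20 partner, rose by 0.93 (SE 0.08) and *Fbxw11*, part of the ligase that marks IκB, by 0.81 (SE 0.09) under IFN-β.

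Of 25 known NF-κB target genes, 25 rose under LPS, and 15 rose and none fell under IFN-β. Under IFN-β 21 were called higher with the replicate letter as a block, 20 without the low-count filter, 17 by DESeq2 and 14 with library totals, which also gave 24 higher under LPS. Under LPS *Nos2*, the inducible nitric oxide synthase gene, went from 3.52, 1.95 and 0.925 CPM to 4820, 3610 and 3620 CPM, and it reached 112, 61.7 and 90.5 CPM under IFN-β. *Il23a*, a subunit gene of interleukin 23, had 1, 0 and 0 counts unstimulated, 448, 818 and 695 after LPS and 1, 2 and 1 after IFN-β. *Cd40*, the costimulatory receptor, rose by 3.85 (SE 0.15) on the log2 scale under IFN-β, from a mean of 6.41 to 92.5 CPM. The median log2 fold change of the list under LPS was 5.61, and 5.3 with *Csf2*, which had 0 counts in all unstimulated libraries, set at its lower bound against 3 counts over that group. Set directly against LPS, 24 of the 25 genes were lower under IFN-β.

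**Figure D5:**
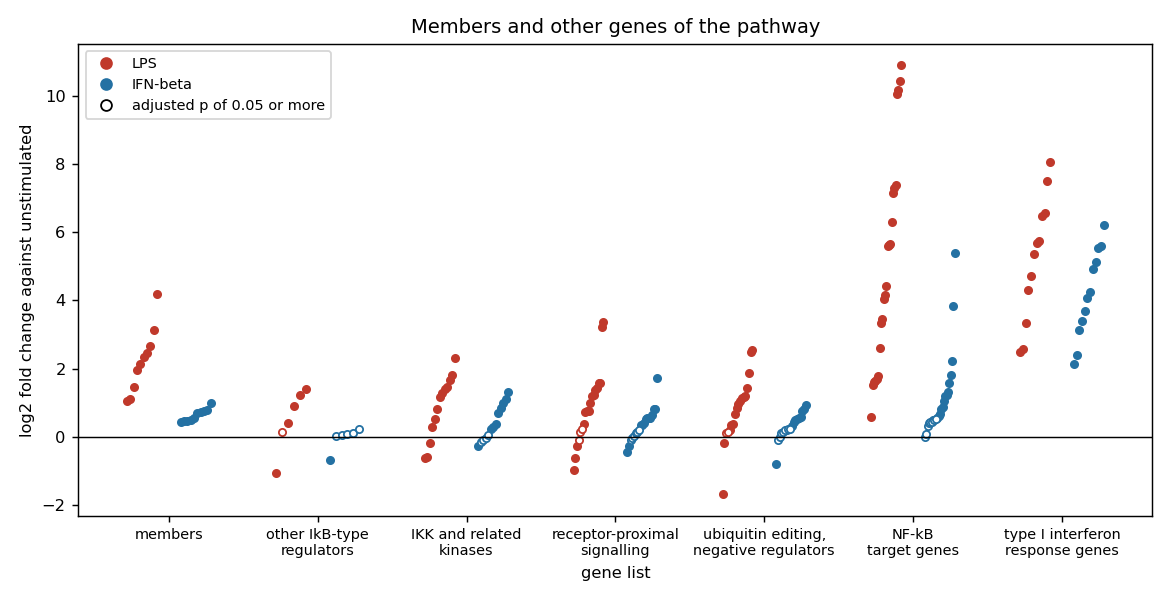
Log2 fold change against unstimulated of the 10 members and of the genes of each pathway list, under LPS (red) and IFN-β (blue), with open points for an edgeR adjusted p of 0.05 or more. *Csf2* and *Il23a*, with 0 and 1 counts over the unstimulated libraries, are not drawn, and the target genes reach above 10 under LPS while the members stay between 1.06 and 4.18.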

How the data were processed

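Total RNA was depleted of ribosomal RNA, made into libraries with the KAPA RNA HyperPrep kit and sequenced in paired-end mode. Per the methods and the submitters' processing notes, the authors trimmed reads with Trim Galore 0.6.0, aligned them to the mouse genome (mm10, GRCm38) with STAR and counted them per gene of GENCODE release M20. The processing notes give STAR version 2.7.8a and the paper's methods an earlier one, and the strand setting is not given in the sources used here. The deposited values are raw counts per gene and library, with no normalization and no filter; all 9 columns were matched to samples by name.

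Differences in counts were tested in R 4.3.3 (edgeR 4.0.16, limma 3.58.1) with TMM factors and quasi-likelihood F tests, as the study did. The filter (filterByExpr) and the model of 1 term per condition over all 9 libraries were chosen here. The Benjamini-Hochberg adjustment ran over the 16260 tested genes, and an adjusted p under 0.05 counted as a call. The standard error is the absolute log2 fold change divided by the square root of F. Shares and ratios used exon lengths of GENCODE M21, a later release, which held 55144 of the 55471 identifiers, and exact permutation tests over libraries. The model was also run on simulated data in which few genes changed, in the LPS libraries only. That run did not test the choice of scaling. Named genes were the members, the 2 genes most like each member, and genes of the lists. The list genes were drawn from the 2 largest rises and the 2 largest falls among called genes, per list and comparison with unstimulated. Lists without a fall, such as the target genes, are thus shown by their largest rises. *Nfkbid*, *Csf2*, *Siglech*, *Tcf4* and *Hbb-bs* were named after their values were seen. The members and lists were chosen with earlier results of these data known. Promoter sequences are from RefSeq on GRCm38.p6, matched by gene symbol.

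Same-letter libraries deviated together from their group means (r of 0.134 to 0.546 in all 9 pairs, beside -0.48 to 0.062 in the other 18). The letters were therefore taken to pair the samples. The reported edgeR tests and permutation tests did not use this pairing, and a fit with the letters as a block was an alternative. Within each group, pairs of libraries differed beyond counting noise, but this did not hold for every member. The lowest count of a member in any library was 662. Counting error was not small beside the spread between libraries in every case. For *Nfkb1* under LPS and unstimulated *Nfkbib*, the libraries lay about as close together as counting error alone would give. The other alternatives were DESeq2 1.42.0, library totals alone, upper-quartile factors, the compared groups alone, no low-count filter, a minimum of 10 counts per library, stricter thresholds, other gene lengths, and leaving out each library in turn.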

Additional observations from a re-analysis of the deposited data

How the results depend on the processing

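Of 480 values of the 10 genes under the alternatives, 476 had the direction and side of the threshold of the reported value, 4 no longer passed and 0 reversed. The 4 are the IFN-β responses of *Nfkb1*, *Nfkb2*, *Rela* and *Nfkbia* with library totals alone, where 6 of 10 genes were called. That scaling also moved the share of higher calls among all called genes from 48.1% to 21.9% for LPS, from 50.3% to 22.3% for IFN-β and from 52.5% to 77.9% for IFN-β against LPS. With the replicate block all 10 genes were called in each comparison. The block changed no call on a member. It moved the list calls under IFN-β from 15 to 21 for target genes and from 13 to 15 for receptor-proximal genes. The calls also went from 11 to 13 for genes of ubiquitin editing and other regulation and from 1 to 2 for other IκB-type genes (*Bcl3*). Under LPS they went from 16 to 18 for receptor-proximal genes. Requiring also a log2 fold change of 1 or more in size left 0 of the 10 genes for IFN-β (edgeR; all 10 had an unadjusted p under 0.05) and 7 for IFN-β against LPS. It left 5429, 2052 and 2834 of all genes for LPS, IFN-β and IFN-β against LPS. Leaving out each library in turn gave 10 called genes in every fit, with LPS values of *Nfkbiz* from 4.06 to 4.3 and of *Rela* from 1.01 to 1.16. Of 360 share and ratio values 345 moved by less than the spread between replicates, 15 moved by more and 0 reversed. All 15 were shares of *Nfkb1*, *Nfkb2*, *Rela* or *Relb* with another gene length. The 345 include ratio differences under another gene length, which could not move because the length cancels. They therefore do not show that the shares are stable to the gene length. Depth does not limit the calls on these genes, but 3 libraries a group leave no permutation p under 0.1. The strand setting of the counting leaves *Nfkb2* and *Nfkbib* with some uncertainty.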
